A study of Mus musculus and Homo sapiens with 26 samples.

Results

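The let-7 family 3p strands are the less abundant partner strands of the let-7 miRNAs. They were followed here from small RNA sequencing (miR-seq) of P19 cells, a mouse embryonic carcinoma line, and of human HEK293T cells. Members were chosen by name alone, as the P19 names that begin with let-7 and end in 3p and the human let-7 names of the 3p arm. This gave 10 mouse members of 1396 names used, which include 658 names of 3p strands, and 9 human members of 1080 names used. One mouse name, let-7a-1-7c-2-3p, stands for an identical strand from the let-7a-1 and let-7c-2 hairpins, so its reads cannot be assigned to either hairpin.

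Each let-7 hairpin is cut by Dicer into a duplex of a 5p strand and a 3p strand. The RNase IIIb domain of Dicer cuts the 5p arm and the RNase IIIa domain cuts the 3p arm. In most tissues the 5p strand is the guide, which stays bound to an Argonaute protein such as AGO2 and represses growth and pluripotency genes, while the 3p strand is the passenger, which is discarded. In pluripotent cells LIN28 blocks the maturation of let-7 precursors, so mature let-7 is low until cells differentiate.

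P19 cells were wild type (WT, Dicer +/+), had a truncating change in 1 Dicer1 allele (HetKO, Dicer +/-), or carried in addition an E1797G hotspot change in the RNase IIIb domain of the other allele (HM, Dicer HM/-). Total RNA was sequenced from 6 libraries of each genotype, and RNA bound to immunoprecipitated AGO2 (AGO2 IP) from 2 WT and 4 HM libraries. The HEK293T cells, a human kidney line, lacked Dicer (-/-) and overexpressed either WT Dicer or D1320A, a Dicer changed in the RNase IIIa domain, with 1 library for each. HM cells were made from HetKO cells, and the study describes a difference between lines elsewhere in the genome, a silent miRNA cluster on chromosome 12 in HM, as a clonal effect.

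The mature strands are shown because they differ in the seed, bases 2 to 8, by which a miRNA finds its targets. All 10 members matched a RefSeq entry, and sequences and positions are those of RefSeq on GRCm38.p6. Capitals mark the seed, and the prefix mmu, for mouse, is left out of the names in the text.
mmu-let-7a-1-7c-2-3p: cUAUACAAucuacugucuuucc
mmu-let-7b-3p: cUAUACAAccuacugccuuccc
mmu-let-7f-1-3p: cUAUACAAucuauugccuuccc
mmu-let-7f-2-3p: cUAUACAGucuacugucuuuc
mmu-let-7d-3p: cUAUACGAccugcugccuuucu
mmu-let-7e-3p: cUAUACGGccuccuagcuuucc
mmu-let-7a-2-3p: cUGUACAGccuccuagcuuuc
mmu-let-7c-1-3p: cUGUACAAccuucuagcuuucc
mmu-let-7i-3p: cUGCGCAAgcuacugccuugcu
mmu-let-7g-3p: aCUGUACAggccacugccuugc
For comparison, the guide strand of let-7a has the seed that defines the family.
let-7a-5p: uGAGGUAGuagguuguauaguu

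The 3p strands do not share 1 seed. The strands let-7a-1-7c-2-3p, let-7b-3p and let-7f-1-3p hold UAUACAA, and each of the other 7 has a seed of its own within the family, which makes 8 seeds in all. The closest pair, let-7a-1-7c-2-3p and let-7f-2-3p, differ at 1 of 21 bases, and this base lies in the seed. Of the members 9 of 10 begin with C, whereas C begins 26% of the 709 3p strands in the RefSeq table. let-7g-3p is the exception and begins with A. The 5′ pocket of Argonaute proteins is known to favour U or A.

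The hairpins lie in several transcripts. let-7a-1-3p (chr13:48538188-48538209, minus strand), let-7f-1-3p (chr13:48537833-48537854) and let-7d-3p (chr13:48536024-48536045) come from hairpins within 2261 bases in an exon of the noncoding gene 6720427I07Rik. let-7c-2-3p (chr15:85706664-85706685, plus strand) and let-7b-3p (chr15:85707379-85707400) come from hairpins within 801 bases in an exon of Lncppara. let-7e-3p (chr17:17830411-17830432, plus strand) lies in an intron of Spaca6, let-7g-3p (chr9:106178902-106178923, plus strand) in an intron of Wdr82, and let-7f-2-3p (chrX:151912403-151912423, plus strand) in an intron of Huwe1 beside miR-98. let-7c-1-3p (chr16:77599717-77599738, plus strand) lies in an intron of Mir99ahg, let-7a-2-3p (chr9:41536777-41536797, plus strand) in an intron of 3110039I08Rik, and let-7i-3p (chr10:122985642-122985663, minus strand) in an exon of D630033A02Rik. Drosha is known to leave a 2-nt 3′ overhang on the precursors of let-7a-2, let-7c-1 and let-7e and a 1-nt overhang on the others, which need a uridine added before Dicer cuts them.

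Total RNA libraries held between 1530466 reads in the shallowest HM library and 3246326 in the deepest HetKO library, and AGO2 IP libraries between 4476845 and 5889717. A strand with no read could still have been present at a level worth 3 reads, which came to 1.22 signal units or less in a total RNA library and 0.655 RPM or less in an AGO2 IP library. The 6 pluripotency markers fixed for P19 cells (miR-291a-3p, miR-294-3p, miR-295-3p, miR-302a-3p, miR-302b-3p and miR-302d-3p) were all read, with summed signals of 81511 to 92641 in WT and 58909 to 84833 in HM. The 6 markers of other tissues (miR-122-5p, miR-1a-3p, miR-142a-3p, miR-451a, miR-124-3p and miR-143-3p) were also all read in every group. miR-451a was read in 5 of 6 HetKO total RNA libraries. Their summed signal in total RNA ran from 419 to 1605 for WT, 296 to 659 for HetKO and 579 to 892 for HM, and their sum was 757 to 1081 RPM in WT and 2305 to 6900 RPM in HM AGO2 IP. The part of RNA from other cells or libraries in the values below was not tested.

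In WT total RNA the 3p strands were scarce. Their summed signal, the spike-in normalised read count of the authors, was 38.9 ± 3.57 (SD, n = 6), against 3923 ± 458 for the let-7 5p strands. let-7a-1-7c-2-3p led with 21.9 ± 1.62, or 56.3% of the sum, and did not overlap the next strand. let-7f-2-3p had 6.40 ± 1.17, let-7i-3p 4.58 ± 1.79, let-7e-3p 2.32 ± 0.886, let-7d-3p 1.97 ± 1.74 and let-7g-3p 0.976 ± 0.487, and each of these overlapped its neighbour in this order. The remaining 4 had between 1 and 6 reads over all 6 WT libraries. let-7a-2-3p was the lowest, with 1 read in WT and 0 in HetKO and HM. Fewer cells with a strand and less of it per cell cannot be told apart in these bulk samples.

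The first comparison, HM vs WT total RNA, asks how the 3p strands of a family whose 5p strands are the guides differ between these lines. HM differs from WT in both Dicer1 alleles and in clone, which cannot be told apart in this comparison. Of the 10 members 7 were higher in HM and 0 lower, by a two-sided exact permutation test over libraries with no minimum level (adjusted p under 0.05 over 1227 names). The same test called 11.7% of all names and 23.1% of 603 names of 3p strands higher. The 7 were let-7a-1-7c-2-3p, let-7b-3p, let-7c-1-3p, let-7e-3p, let-7f-1-3p, let-7f-2-3p and let-7i-3p. Over the 9 members with reads in both genotypes the median fold of means was 3.02 (range 1.18 to 4.81), beside 1.09 over 535 3p-miRNAs.

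let-7a-1-7c-2-3p, the most abundant member, rose by 3.02-fold. Its signal ranged from 19.9 to 24.5 in WT with a median of 21.7, and from 49.1 to 94.9 in HM with a median of 61.3. The lowest HM library was thus above the highest WT library, which was so for 7.91% of all names and 15.6% of 3p names. It was the one member with a mean signal of at least 10, the minimum used for the limma fit, and there its log2 change was 1.52 (SE 0.16, limma adjusted p = 3.84e-07, n = 6 each). That fit called 22.9% of 415 names higher and 43.3% of 217 3p names. Replicates 1 and 4, 2 and 5, and 3 and 6 resembled each other in WT and HetKO, and within these pairs the fold was 2.37, 3.31 and 3.38.

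let-7e-3p, of the miR-99b, let-7e and miR-125a cluster, rose by 3.6-fold and was the other member without overlap. It ranged from 1.17 to 3.65 in WT (median 2.06) and from 5.89 to 12.5 in HM (median 7.56, exact permutation adjusted p = 0.00576). let-7f-2-3p rose less, from 6.40 ± 1.17 to 12.4 ± 3.91 (exact permutation adjusted p = 0.0109, n = 6 each), and its lowest HM library at 7.69 lay just below the highest WT library at 7.79. let-7i-3p rose from 4.58 ± 1.79 to 8.11 ± 2.07 (exact permutation adjusted p = 0.021, n = 6 each), with WT up to 7.30 and HM from 6.17.

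The lowest strands rose on few reads. let-7f-1-3p had 6 reads over the WT libraries and 33 over the HM libraries, a 4.51-fold higher mean signal (exact permutation adjusted p = 0.0159, n = 6 each). let-7b-3p went from 2 to 11 reads and let-7c-1-3p from 3 to 17, with an adjusted p of 0.0457 for both in the exact permutation test. These last calls were fragile, since let-7b-3p lost its call when any 1 of 7 libraries was left out (adjusted p up to 0.087) and let-7c-1-3p when any 1 of 9 was left out (up to 0.0791).

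The other 3 members did not pass. let-7d-3p ranged from 0.406 to 4.67 in WT (median 1.32) and from 2.24 to 7.17 in HM (median 3.27), a 2.00-fold higher mean with overlapping libraries (exact permutation p = 0.0909, adjusted 0.164). Within replicates 1 and 4 its fold was 1.06, and within 3 and 6 it was 3.55. With limma and a minimum mean of 1, let-7d-3p was called (log2 change 0.86, adjusted p = 0.0351). let-7g-3p, the strand that begins with A, had 0.976 ± 0.487 in WT and 1.15 ± 0.387 in HM (fold 1.18, exact permutation adjusted p = 0.672, n = 6 each). let-7a-2-3p had 1 read in WT and none in HM.

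Levels relative to the spike-in and to other miRNAs differ here, because the median of all 415 names was -1.10 on the log2 scale in HM vs WT. It was -0.04 after each library was rescaled to the same total. With a minimum mean of 1, 5 of 6 members were called higher by limma on the spike-in scale (background 20.6% of 686 names and 38.1% of 354 3p names), and let-7g-3p was not. After rescaling, 6 of 6 were called, beside 39.9% of all names and 70.3% of 3p names, and let-7g-3p had a log2 change of 0.72. After centring on guide 3p-miRNAs 6 of 6 were again called, beside 30.6% and 54.8%, and let-7g-3p had 0.62. let-7g-3p, at 0.976 in WT, passed the minimum only with its HM libraries.

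**Figure D1:**
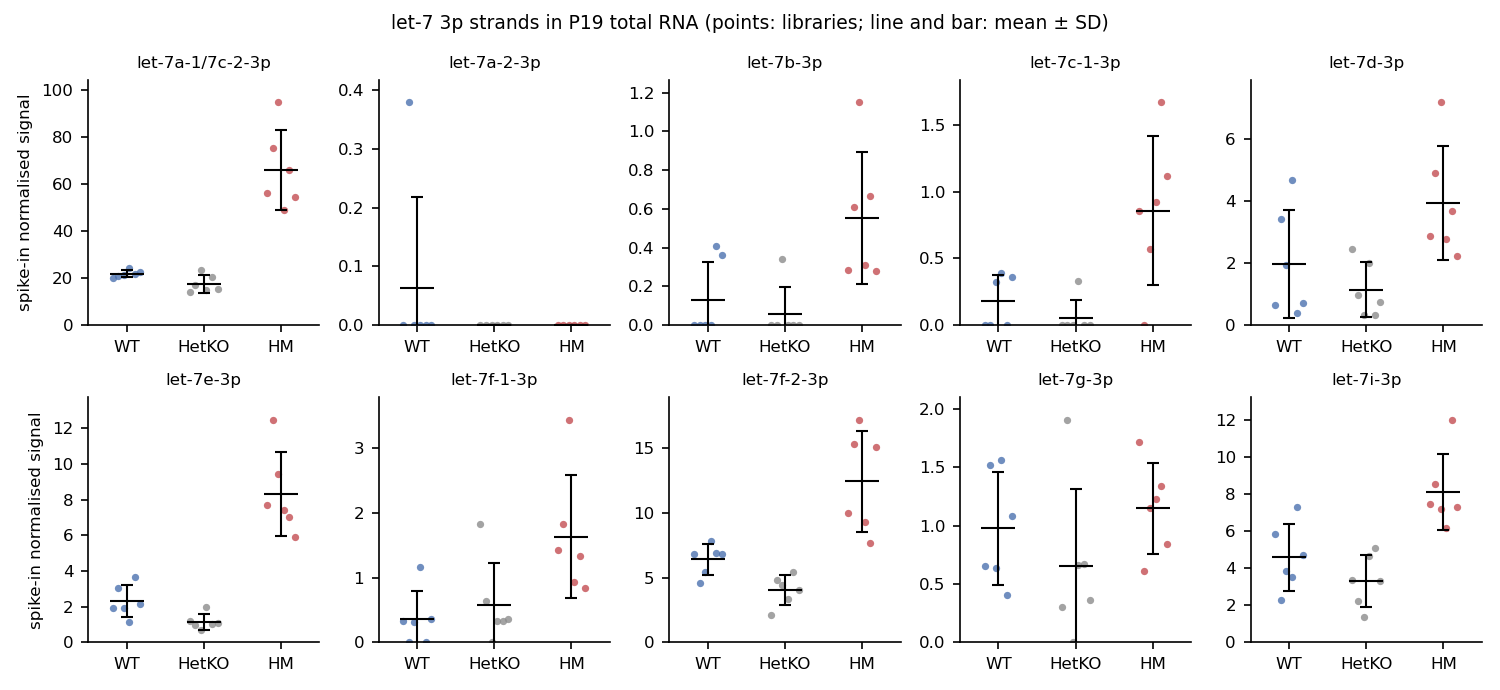
Spike-in normalised signal of each let-7 3p strand (y axis, its own linear scale in each panel) in total RNA of WT, HetKO and HM cells. Points are 6 libraries a group, and lines and bars are mean ± SD, cut at 0. In let-7a-1-7c-2-3p and let-7e-3p every HM library lies above every WT library, while let-7g-3p overlaps throughout and let-7a-2-3p has a single WT point.

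In HetKO cells, which keep 1 intact Dicer1 allele, no member was called higher than in WT. The exact test called 0 of 10 members in HetKO vs WT (background 0.242% of 1238 names higher and 5.41% lower), and 3 had an unadjusted p under 0.05, all lower. let-7a-1-7c-2-3p was 17.6 ± 3.7 in HetKO, with a log2 change of -0.32 (SE 0.13, limma adjusted p = 0.0752, background 22.9% of 433 names lower). Limma called it lower, by -0.41, without HetKO replicate 3 (adjusted p = 0.021), and its change was 0.03 after centring on guide 3p-miRNAs. With a minimum mean of 1, let-7e-3p (-0.60, limma adjusted p = 0.0386) and let-7f-2-3p (-0.58, limma adjusted p = 0.0341) were lower in HetKO, beside 19.8% of 681 names. Neither was called after rescaling or centring.

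Against HetKO, the cells HM was made from, 7 of 9 members with a read were higher in HM by the exact test and 0 lower (background 15% of 1209 names and 29.1% of 597 3p names). let-7e-3p was 7.18-fold higher, let-7a-1-7c-2-3p 3.77-fold, let-7d-3p 3.47-fold (exact permutation adjusted p = 0.0107), let-7f-2-3p 3.1-fold and let-7i-3p 2.44-fold. let-7b-3p and let-7c-1-3p were also called, each from 1 read in HetKO. let-7f-1-3p had a fold of 2.8 (exact permutation adjusted p = 0.0641) and let-7g-3p of 1.75 (exact permutation adjusted p = 0.253), so neither passed. In 4 members, let-7a-1-7c-2-3p, let-7e-3p, let-7f-2-3p and let-7i-3p, every HM library lay above every HetKO library, as in 9.76% of all names and 19.1% of 3p names. In the limma fit let-7a-1-7c-2-3p had a log2 change of 1.84 (SE 0.19, adjusted p = 7.37e-08), where 29.6% of 395 names and 54.3% of 210 3p names were called higher. Both contrasts use the same HM libraries, and HetKO vs WT shares libraries with each.

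The share of a duplex that is 3p strand does not depend on how a library was scaled, because both strands are read in the same library. let-7a and let-7c were pooled for it, since let-7a-1 and let-7c-2 share a 3p strand, and so were let-7f-1 and let-7f-2. All 7 let-7 duplexes had a higher 3p share in HM than in WT total RNA (two-sided exact permutation p = 0.00216 each, the smallest that 924 relabellings can give, adjusted p = 0.00305 over 335 duplexes). The same test called 77.3% of all duplexes higher, and 71.3% had no overlap, so the count does not set the family apart.

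How far the share rose differed between duplexes. let-7d went from 4.97% ± 4.05 in WT to 76.7% ± 9.58 in HM (SD, n = 6), from 32 to 79 3p reads and from 613 to 21 5p reads. let-7e went from 0.294% ± 0.0984 to 62.5% ± 10.5 and the let-7a and let-7c duplexes from 1.56% ± 0.117 to 57.7% ± 7.02. Here the passenger was the more frequent strand in the mean of the 6 libraries, although the lowest library had 44.7% for let-7e and 45.7% for let-7a and let-7c. It stayed the minor one in let-7f at 36.3% ± 9.4, let-7i at 26.1% ± 7.22, let-7g at 22.6% ± 12.8 and let-7b at 4.18% ± 2.19. let-7b was lowest in the mean, with 1.56% to 7.84% in the HM libraries, a range that overlapped that of let-7g (5.88% to 42.9%), and 255 reads of let-7b-5p remained over the 6 HM libraries.

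In HetKO, 0 of 7 duplexes were called, and 1 had an unadjusted p under 0.05 in the exact permutation test, let-7e with 0.191% against 0.294% in WT (p = 0.0498, adjusted 0.618). None of 359 duplexes was called in HetKO (0%). Over all let-7 strands together, WT had a 3p share of 0.986% ± 0.0691, HetKO one of 0.943% ± 0.0973 and HM one of 46.1% ± 6.67. The summed 3p signal in HM was 103 ± 23.9 and the summed 5p signal 123 ± 32.8.

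**Figure D2:**
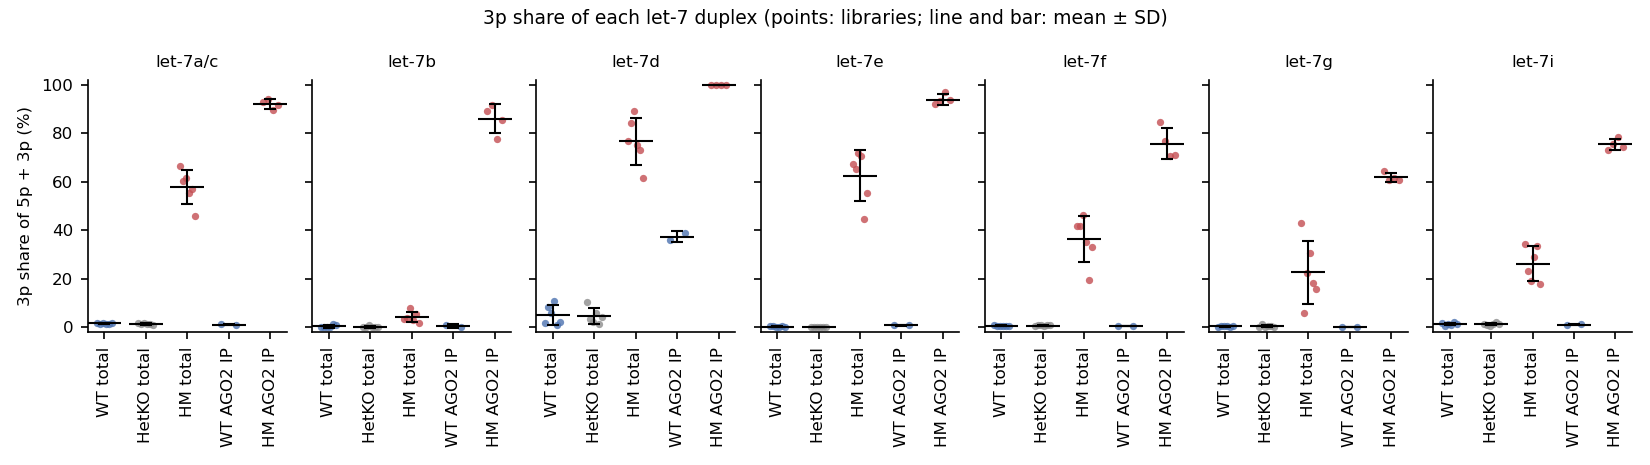
Share of 3p strand among the reads of each let-7 duplex in percent (y axis), by genotype and assay (x axis). Points are libraries and lines and bars are mean ± SD. WT and HetKO lie near 0 except for let-7d, HM total RNA lies between 4.18% for let-7b and 76.7% for let-7d in the mean, and HM AGO2 IP lies above HM total RNA in every panel.

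The AGO2 IP asks which of these strands reach the effector protein. In RPM (miRNA reads scaled to a common total by the authors), 9 of 10 members were called higher in HM than in WT AGO2 IP by limma without a minimum (2 WT and 4 HM libraries), beside 32% of 1260 names and 58.6% of 635 3p names, and let-7a-2-3p was not. With the minimum mean of 10, 5 members were tested and called, where 54% of 467 names and 83.9% of 285 3p names were called. let-7e-3p, let-7f-2-3p and let-7i-3p had WT means under 10 and passed that minimum only through HM, where they were high, so this count adds nothing to the one without a minimum. In 9 of 10 every HM library lay above every WT library, as in 37% of all names and 67.6% of 3p names. With 2 against 4 libraries the exact permutation test cannot go below p = 0.0667.

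let-7a-1-7c-2-3p had the highest mean in both genotypes, by a narrow margin over let-7d-3p in WT (28.9 and 28.5 RPM), and the libraries of both strands overlapped. It had 38.7 and 19.1 RPM in the WT libraries and 399.5, 462, 197 and 308 RPM in the HM libraries, a log2 change of 3.53 (SE 0.43, limma adjusted p = 0.000239). Its spread was wide in both groups, yet the lowest HM library was above the higher WT library.

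let-7d-3p was above it in WT replicate 2 and in HM replicate 3. It had 24.8 and 32.1 RPM in WT and 287, 247, 246 and 242 RPM in HM, a log2 change of 3.13 (SE 0.19, limma adjusted p = 6.43e-06). Its rank is unlike that in total RNA, where let-7d-3p had rank 5 among the members in WT and in HM.

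let-7e-3p rose most of the 5 with 4.09 on the log2 scale (SE 0.18, limma adjusted p = 1.51e-06), from 4.63 and 3.63 RPM to 90.9, 90.2, 77.7 and 86.6 RPM. let-7i-3p rose from 1.79 and 3.07 RPM to 27.5, 25.3, 23.4 and 30.6 RPM (log2 change 3.03, SE 0.22, limma adjusted p = 1.76e-05). The HM libraries agreed closely for both strands.

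let-7f-2-3p was less even. It had 6.72 and 5.31 RPM in WT and 152, 63, 37.6 and 57.1 RPM in HM (log2 change 3.29, SE 0.53, limma adjusted p = 0.000959). HM replicate 1 was also high for miR-98-3p from the same Huwe1 intron, with 144 RPM against 41.6 to 60.4 RPM in the other 3. Without that library the change of let-7f-2-3p was 2.91 (limma adjusted p = 0.000249).

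Among the low strands, let-7b-3p had 0.598 and 0 RPM in WT and 14.6, 12.3, 5.79 and 6.64 RPM in HM, or 4 against 195 reads, a 33-fold higher mean. let-7f-1-3p rose from 0.494 ± 0.487 to 8.88 ± 1.28 RPM and let-7g-3p from 0.573 ± 0.177 to 6.56 ± 0.443 RPM. Thus let-7g-3p, whose spike-in signal in total RNA did not pass the exact test, was 11.4-fold higher in AGO2 IP RPM. Its limma adjusted p was 2.08e-05 with a minimum mean of 1, which it passed only through HM. RPM and spike-in signal are different scales, and after rescaling let-7g-3p was called higher in total RNA as well. let-7c-1-3p had no read in WT and 12 reads in HM, 0.437, 0.949, 0.62 and 0.38 RPM, at least 2.78-fold higher when WT is set at 3 reads over the group. let-7a-2-3p had 1 read in 1 of the 4 HM libraries.

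**Figure D3:**
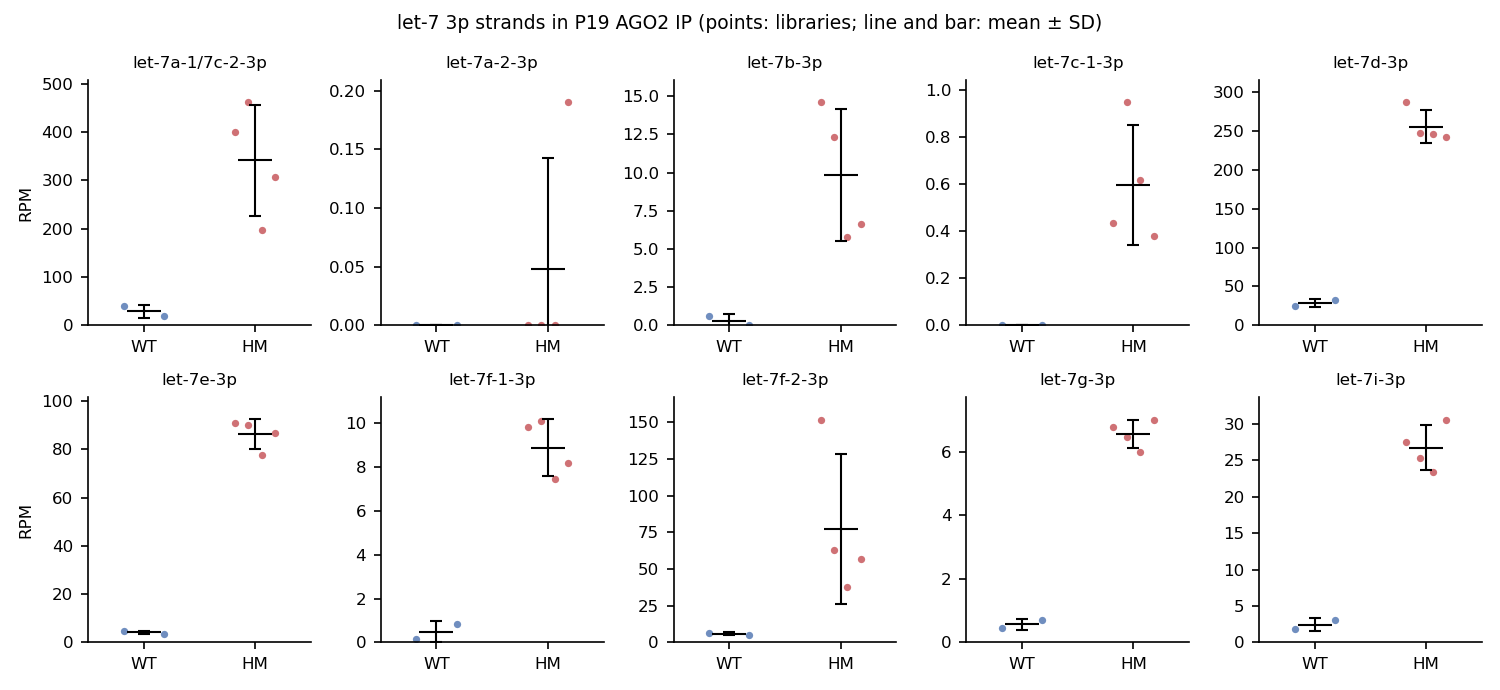
RPM of each let-7 3p strand (y axis, its own linear scale in each panel) in AGO2 IP of WT (2 libraries) and HM (4 libraries) cells. Points are libraries and lines and bars are mean ± SD, cut at 0. Every HM library lies above every WT library except for let-7a-2-3p, and HM replicate 1 of let-7f-2-3p lies at 152 RPM.

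RPM is a share of all miRNA reads, and the median log2 change was 1.13 over all 467 names and 2.12 over 285 3p names. Centring on guide 3p-miRNAs brought these medians to -0.10 and 0.88. The same 5 members were then called higher by limma, beside 30.8% of 467 names and 48.8% of 285 3p names. Here too let-7e-3p, let-7f-2-3p and let-7i-3p passed the minimum only through HM, so this count is no separate result for them. The shares within duplexes do not depend on either scale. In HM AGO2 IP the 3p strand made up 99.8% ± 0.0653 of let-7d, 94% ± 2.07 of let-7e, 92.1% ± 1.92 of let-7a and let-7c, and 86% ± 6.05 of let-7b (SD, n = 4). It made up 75.7% ± 6.48 of let-7f, 75.4% ± 2.27 of let-7i and 61.9% ± 1.84 of let-7g. In WT AGO2 IP it was between 0.282% and 1.06% in all but let-7d, which had 35.8% and 38.9% in the 2 libraries. For all 7 duplexes the exact permutation p was 0.0667, and 79% of 447 duplexes had no overlap. The family as a whole had 1.39% ± 0.031 (n = 2) in WT and 91.8% ± 0.975 (SD, n = 4) in HM.

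AGO2 loading was taken as the AGO2 IP level over the total RNA level, both scaled to the summed reads of the names used. let-7d-3p stood out in both genotypes. Its ratio was 32.7 in HM, the highest of 409 3p-miRNAs with an RPM of at least 1 in both assays, and 19 in WT, second of 326. Both ratios rest on few total RNA reads of let-7d-3p. There were 32 in WT, with 1 to 12 in a library, and 79 in HM, with 8 to 25. On the log2(value + 1) scale of the limma fit its loading was 4.95 (SE 0.34, limma adjusted p = 1.16e-09) in HM and 3.81 (SE 0.43, limma adjusted p = 1.73e-06) in WT. The fit holds 6 total RNA libraries a genotype with 2 WT and 4 HM AGO2 IP libraries.

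The other members were loaded less. In HM, let-7e-3p had a loading of 2.34 (SE 0.20), let-7f-2-3p of 1.46 (SE 0.31), let-7a-1-7c-2-3p of 1.33 (SE 0.23) and let-7i-3p of 0.71 (SE 0.23). Without a minimum, limma called 8 of 10 members above 0 in HM, beside 31% of 1347 names and 49.2% of 651 3p names. let-7i-3p lost its call when libraries were centred on guide 3p-miRNAs (0.18, limma adjusted p = 0.552), and let-7d-3p, let-7e-3p, let-7f-2-3p and let-7a-1-7c-2-3p kept theirs.

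In WT, 2 of 10 were called without a minimum (background 19.4% of 1347 names and 17.4% of 651 3p names), let-7d-3p and let-7e-3p (0.94, SE 0.25, limma adjusted p = 0.00654 with the minimum). let-7a-1-7c-2-3p had 0.64 (adjusted p = 0.0958), let-7f-2-3p 0.23 (adjusted p = 0.684) and let-7i-3p -0.41 (adjusted p = 0.275) in limma. Ranked by IP over total RNA among 3p-miRNAs, let-7i-3p was 286 of 326 in WT and 240 of 409, nearer the middle, in HM.

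The low strands among the 8 called in HM were let-7b-3p (2.36, SE 0.26), let-7f-1-3p (1.31, SE 0.27) and let-7g-3p (1.23, SE 0.19). let-7c-1-3p went the other way, with -0.67 in the fit without a minimum (limma adjusted p = 0.0892). let-7b-3p and let-7c-1-3p had similar, overlapping signals in HM total RNA, 0.55 ± 0.339 and 0.859 ± 0.558 (SD, n = 6). In HM AGO2 IP they did not overlap, at 9.85 ± 4.32 and 0.597 ± 0.257 RPM (SD, n = 4). Among the precursors with a 2-nt overhang, let-7e-3p had 86.3 RPM in HM AGO2 IP, while let-7c-1-3p had 12 reads and let-7a-2-3p 1 read. Their signals already differed in HM total RNA, with 8.34 for let-7e-3p and 0.859 for let-7c-1-3p, so these AGO2 IP levels do not compare loading. let-7a-2-3p had no read in HM total RNA and so no ratio.

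**Figure D4:**
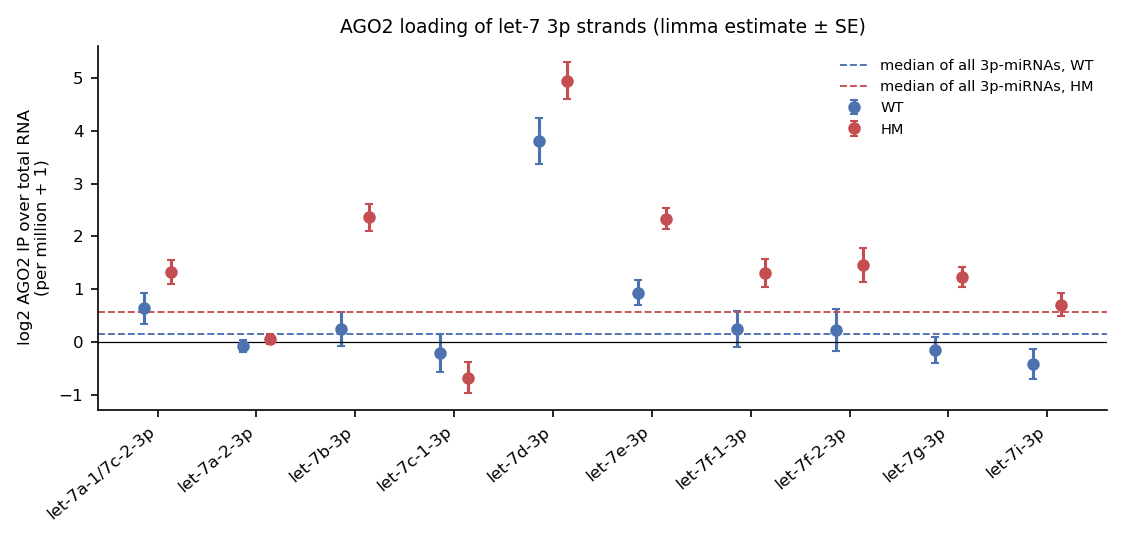
AGO2 loading of each let-7 3p strand (y axis, limma estimate of log2 AGO2 IP over total RNA on RPM + 1, fitted without a minimum) in WT and HM. Points are estimates, bars are SE, and dashed lines are the medians of all 3p-miRNAs in the same fit. let-7d-3p is highest in both genotypes, and let-7c-1-3p lies below 0 in both.

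The same difference is seen within single libraries as the ratio of let-7d-3p to let-7a-1-7c-2-3p, strands of hairpins that lie close together on chromosome 13. In HM total RNA the ratio was 0.0574 ± 0.0118 (range 0.041 to 0.0755, n = 6), and in HM AGO2 IP it was 0.719, 0.535, 1.25 and 0.786. In WT it was 0.0878 ± 0.0738 in total RNA and 0.641 and 1.68 in AGO2 IP. No AGO2 IP library overlapped a total RNA library. The let-7c-2 hairpin on chromosome 15 adds to the let-7a-1-7c-2-3p reads, so the ratio is not one of 2 hairpins.

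Whether loading differed between HM and WT was tested as the interaction in the same fit. let-7e-3p (1.40, SE 0.32, limma adjusted p = 0.00577) and let-7i-3p (1.12, SE 0.37, limma adjusted p = 0.0485) were called higher in HM, 2 of 5 members beside 8.6% of 465 names and 7.95% of 264 3p names. In WT both were below the minimum of 10 in both assays and entered the fit through HM. The estimates for let-7f-2-3p (1.23, adjusted p = 0.109), let-7d-3p (1.13, adjusted p = 0.166) and let-7a-1-7c-2-3p (0.69, adjusted p = 0.224) had the same sign and did not pass in limma. The call of let-7i-3p was lost when any 1 of 14 of the 18 libraries was left out, and that of let-7e-3p in none of these fits. Without a minimum, limma called let-7e-3p, let-7b-3p (2.11) and let-7g-3p (1.39), 3 of 10 beside 6.09% of 1347 names and 7.83% of 651 3p names, and let-7i-3p had an adjusted p of 0.0505. In WT, let-7b-3p and let-7g-3p were below 1 RPM in both assays, where the pseudocount of 1 holds the loading near 0, so their difference mostly restates the loading in HM. The calls of let-7e-3p and let-7i-3p did not hold after centring on guide 3p-miRNAs, where limma gave 1.03 for let-7e-3p (adjusted p = 0.0758) and 0.74 for let-7i-3p (adjusted p = 0.253).

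The guide strands of the family moved the other way. Of the 12 other family strands, 8 passed the minimum in HM vs WT total RNA, and all 8 were 5p strands and lower (limma log2 change -1.36 to -8.51, background 59.3% of 415 names lower). let-7c-5p was at 0.163% of its WT level and let-7e-5p at 0.643%, whereas let-7a-5p kept 7.83%, let-7i-5p 6.87% and let-7b-5p 37.7%. The fall of let-7b-5p did not hold after libraries were rescaled to the same total (log2 change -0.31, limma adjusted p = 0.129), whereas the other 7 were still lower. let-7b-5p signal was 33.6 ± 5.85 in WT and 12.7 ± 3.43 in HM total RNA. In AGO2 IP it was at 2.89% of WT, 49.2 ± 14.3 RPM (n = 2) against 1.42 ± 0.326 RPM (n = 4). miR-122-5p, known as a liver miRNA, was at 76.1% of WT in HM total RNA and at 19.2% in AGO2 IP, and its part in the let-7b-5p reads was not tested. let-7k, a name with no arm, had 4 reads in WT, 2 in HetKO and 0 in HM, and let-7j had 1 read, in HetKO.

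Some 3p strands of other miRNAs come from hairpins that lie beside those of let-7, and 6 of them were followed. By the exact permutation test without a minimum 5 of the 6 were higher in HM than in WT total RNA, where the background is 11.7% of all names and 23.1% of 3p names as above. These were miR-99a-3p (19.2-fold), miR-99b-3p (8.92-fold), miR-125a-3p (6.91-fold), miR-125b-1-3p (5.58-fold) and miR-100-3p (8.6-fold, on few reads). miR-99a-3p, which shares Mir99ahg with let-7c-1, went from 2.77 ± 1.07 to 53.3 ± 21.5, and miR-99b-3p, beside let-7e, from 563 ± 135 to 5023 ± 558 (SD, n = 6). miR-98-3p, the neighbour of let-7f-2, is also among the other family strands and was not a member because of its name. It had 7.69 ± 1.98 in WT and 9.79 ± 3.85 in HM and did not pass (exact permutation adjusted p = 0.422, n = 6 each). miR-100-3p, which lies near let-7a-2, had 2 reads in WT and 21 in HM. In AGO2 IP all 6 were called higher by limma without a minimum (log2 change 1.89 to 5.64), where 58.6% of 3p names were.

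Only let-7a-1-7c-2-3p passed the minimum in all 18 total RNA libraries together, so likeness was measured to it alone. Across the 18 libraries and 211 candidate 3p-miRNAs, the closest by Pearson r of log2(signal + 1) were miR-218-2-3p (0.955), miR-10b-3p (0.949), miR-99a-3p (0.948), miR-20b-3p (0.945) and miR-181c-3p (0.942). The libraries fall into 3 genotypes, and any strand that differs between HM and the other genotypes gives a high r, so these are given as a description.

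In HEK293T cells the comparison was of WT Dicer with D1320A, whose changed RNase IIIa domain is the one that cuts the 3p arm. There is 1 library a condition, so values describe these libraries only, with 95% intervals that cover counting error. The 9 human strands summed to 874 reads with WT Dicer and 9 with D1320A, of 822285 and 103661 reads in all. On the deposited scale this was a 93-fold lower sum (48.8 to 204, conditional binomial interval), and 12.2-fold lower (6.42 to 26.9) after both libraries were rescaled to the same total. Past 4-fold lower on the deposited scale were 5 of the 5 members with a mean of at least 10 reads. The background was 74.2% of 341 names and 99.3% of 146 3p names, a share near that of 3p strands in general. On that scale all names together summed to 25344878 with D1320A and 192482380 with WT Dicer. After rescaling, let-7a-3p-1-3 (14.6-fold) and let-7i-3p (5.42-fold) stayed past 4-fold. let-7f-2-3p, let-7g-3p and let-7d-3p had no read with D1320A, and set at 3 reads their folds were 3.91, 1.34 and 0.966.

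let-7a-3p-1-3, the human strand shared by let-7a-1 and let-7a-3, led with 580 reads against 5 (111-fold lower, 47.3 to 343, and 14.6-fold, 6.23 to 45.2, after rescaling). let-7i-3p had 86 against 2 reads (41.2-fold lower, 11.1 to 345, and 5.42-fold, 1.46 to 45.5, after rescaling) and let-7b-3p 18 against 1, whose fold after rescaling was 2.27 (0.358 to 94.5). let-7f-2-3p (93 reads with WT Dicer), let-7g-3p (32), let-7d-3p (23), let-7c-3p (19) and let-7f-1-3p (17) had no read with D1320A. Set at 3 reads, these were 29.7-fold, 10.2-fold, 7.34-fold, 6.06-fold and 5.43-fold lower. The 95% lower limits, which also cover the counting error with WT Dicer, were 23.7, 7.84, 5.5, 4.47 and 3.95. After rescaling the fold at 3 reads stayed above 1 for let-7f-2-3p (3.91, 95% lower limit 3.12) and let-7g-3p (1.34, 95% lower limit 1.03). It fell below 1 for the other 3, whose fall was not detectable at that depth. let-7e-3p, with 6 reads against 1, had an interval that includes no change (5.74-fold lower, 0.697 to 264). After rescaling its direction turned (0.756-fold lower, that is higher, 0.0918 to 34.8), and its share of the let-7e duplex was 0.345% (Wilson interval 0.158 to 0.752) with WT Dicer and 0.633% (0.112 to 3.5) with D1320A.

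The 3p share of all human let-7 reads was 1.26% for WT Dicer, with a Wilson interval of 1.18 to 1.34, against 0.084% for D1320A, with one of 0.0442 to 0.16. For let-7a and let-7c it was 2.15% (1.99 to 2.33) and 0.0825% (0.0352 to 0.193). For let-7d, 0 of 26 reads with D1320A were 3p, which allows a share of up to 11.5%, and so cannot be set apart from the 4.68% seen with WT Dicer.

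**Figure D5:**
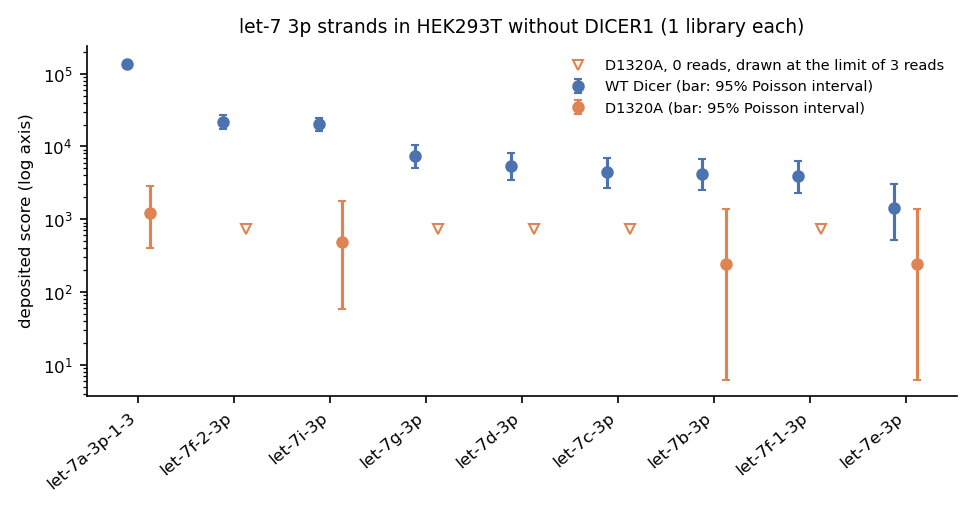
Deposited score of each human let-7 3p strand (y axis, log scale) in HEK293T cells without DICER1 that expressed WT Dicer or D1320A, 1 library each. Circles are scores with 95% Poisson intervals of the reads, and open triangles mark 5 strands with no read in D1320A at the value of 3 reads. let-7a-3p-1-3 falls from 580 to 5 reads.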

How the data were processed

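Small RNA libraries (QIAseq kit) were made from P19 cells (total RNA of 6 WT, 6 HetKO and 6 HM libraries, AGO2 IP of 2 WT and 4 HM libraries) and from HEK293T cells (1 library a condition). Per the study's methods reads were counted per miRNA with QuagmiR. Genome builds and versions are not given in the sources used here. For total RNA the authors deposited a signal, the read count scaled to spike-in RNA added before the library was made. For AGO2 IP the authors deposited RPM, and the names used sum to between 82.2% and 97.8% of the full RPM total in a library. The sums differed by genotype, with 832586 and 822326 RPM in the WT libraries and 975456 to 977911 RPM in the HM libraries. The limma fit of RPM did not adjust for this except where libraries were centred. For HEK293T the deposited score is a read count times a factor that is not stated, with a floor of 1.

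All 20775 P19 values above the floor of 0.01 were whole multiples of 1 step per library, within 0.01 reads, so reads were recovered as value over step. Of 1413 names 17 were blank in every library, and 2 names of the chromosome 12 cluster were left out of the fits. The main test was limma 3.58.1 (R 4.3.3) on log2(value + 1), for names with a mean of at least 10 over the groups compared, with Benjamini-Hochberg adjustment over all names tested and a threshold of 0.05. Fold changes on that scale understate those of low strands. Single strands without a minimum and 3p shares were compared by two-sided exact permutation of libraries (scipy 1.17.1, pandas 2.3.3, numpy 2.4.6, Python 3.11.15), adjusted over all names or duplexes. Loading and its interaction were fitted in limma over both assays. Guide 3p-miRNAs, used for centring, were 64 names with over 70% of their duplex and a signal over 100. HEK293T reads were compared by conditional binomial intervals at 95%, which cover counting error only, and a count of 0 was set at 3 reads. The limma and exact tests were checked on simulated data. Figures were drawn with matplotlib 3.10.9.

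All members were named in every comparison, with the other family strands and the cluster neighbours as lists. Members and lists were chosen with earlier results of these data known. The labels call the P19 libraries biological replicates and do not say what was independent between them, and p-values measure the spread between these libraries. Alternatives covered pseudocounts, minimum levels, rescaling, centring, a replicate block, pair means, limma-voom on recovered reads and leaving out each library. limma-voom, the rescaled and centred fits with a minimum mean of 1, AGO2 loading from RPM as deposited, the exact test without a minimum for the comparisons with HetKO, and the counts without a minimum for AGO2 IP, loading and neighbouring hairpins were chosen after the data had been seen.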

Additional observations from a re-analysis of the deposited data

Results flagged for a closer look

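Of 66 sets of 4 to 10 libraries, 10 held a library far from the others, where chance at 1 in 20 would give 3.3. Several rest on single reads. let-7a-2-3p had its only WT read in replicate 2 (signal 0.379) and its only HM AGO2 IP read in replicate 4 (0.19 RPM). In HetKO, let-7b-3p was read only in replicate 3 (signal 0.34), which also gave the only let-7b share above 0 there (1.03%), and let-7c-1-3p only in replicate 4 (signal 0.333).

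let-7f-1-3p had a signal of 1.83 in HetKO replicate 1 against 0 to 0.638 in the others, and 1.17 in WT replicate 4 against 0 to 0.361. let-7g-3p had a signal of 1.91 in HetKO replicate 2 against 0 to 0.676. The let-7f share was low in WT replicate 2, 0.403% against 0.611% to 0.732%. let-7d-3p had 287 RPM in HM AGO2 IP replicate 1 against 242 to 247 RPM, and a mean of 245 ± 2.89 RPM (SD, n = 3) without it.

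A difference in AGO2 loading between HM and WT was called by the interaction in limma for let-7e-3p (1.40 on the log2 scale, adjusted p = 0.00577) and let-7i-3p (1.12, adjusted p = 0.0485). Both strands entered the fit through HM, and neither call held with a pseudocount of 0.1 or after centring on guide 3p-miRNAs. That of let-7i-3p was lost in 14 of 18 fits that left out a library.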

How the results depend on the processing

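The number of members that limma called higher in HM vs WT total RNA was 1 with a minimum mean of 10, 7 with none, 5 with a mean of at least 1, 5 by limma-voom, and 6 with a mean of at least 1 after rescaling or centring. In HM vs HetKO limma called 1, 8, 6, 6 and 6 under the same settings, while the exact test without a minimum called 7. These differ by construction, as more members pass a lower minimum, some of them only through HM, and none passes a mean of 100. In HetKO vs WT 0 members were called, 2 with a mean of at least 1, and 0 to 1 when a library was left out, and the change of let-7a-1-7c-2-3p turned to 0.03 after centring with either minimum. In AGO2 IP 5 were called, 9 without a minimum, 8 with a mean of at least 1, by limma-voom and when centred, and 2 with a mean of at least 100. The 2 calls of a loading difference became 0 with a pseudocount of 0.1 or centring and 4 with a pseudocount of 10 or a mean of at least 1, and 1 to 2 when a library was left out, the cause of which was not tested. The exact test without a minimum called 7, 0 over pair means, whose smallest p is 0.10, and 5 to 7 when a library was left out. The share test called 7 in total RNA and 0 in AGO2 IP, where the smallest p is 0.0667. The HEK293T sum was -6.54 on the log2 scale and -3.61 after rescaling.

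Same-numbered libraries of different genotypes correlated at -0.46 to 0.388 in their deviations, which does not settle whether the numbers pair them. With a replicate block the counts stayed at 1 (HM vs WT), 0 (HetKO vs WT), 1 (HM vs HetKO) and 5 (AGO2 IP). Within WT and HetKO, replicates 1 and 4, 2 and 5, and 3 and 6 correlated at 0.397 to 0.889, and within HM at -0.467 to 0.315. edgeR and DESeq2 were not run. Depth limits the low strands most, such as let-7b-3p with 2 reads and let-7c-1-3p with 3 over the 6 WT libraries.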
